A study of Mus musculus with 6 samples.

Results

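The intercalated disc is the junction at which heart muscle cells are joined end to end. Of its genes, 10 were described here in the myocardium of STZ-injected and PBS-injected mice. They were chosen by name. They encode the connexins Gja1 and Gja5, the classical cadherin Cdh2 with the catenin Ctnna3, the desmosomal cadherins Dsg2 and Dsc2, the desmosomal plaque proteins Dsp, Pkp2 and Jup, and the scaffold protein Tjp1. All 10 were found among 55401 genes in the files.

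The STZ mice were male, of WT genotype, and received STZ (streptozotocin, a toxin of the pancreatic beta cell that leaves mice diabetic). The PBS mice were also male and WT and received the buffer alone. Each group had 3 libraries made from poly(A) RNA of the myocardium, and every label gives a time of 8 weeks without saying from which event it runs. STZ models diabetes by loss of beta cells, and the labels do not say whether each library came from its own animal, so p-values measure the spread between these libraries only, which may be technical. The values are FPKM, which divide the fragments of a gene by its transcript length and by the mapped fragments of the library, and are thus levels per length that can be set side by side between genes. In the 5 complete libraries they summed to 531384 to 589719. How many fragments lie behind them is unknown, so counting error cannot be stated. For PBS replicate 3 only 7711 genes were listed, among them Cdh2, Jup and Dsc2. The comparison was therefore fitted on 3 STZ libraries and on PBS replicates 1 and 2, and the third PBS library is given where it lists a gene. The tissue label was met by the heart muscle genes Myh6, at 2219 to 2546 FPKM in STZ and 2925 and 3083 FPKM in PBS, and Tnnt2, at 813 to 1099 FPKM in STZ and 671, 756 and 738 FPKM in PBS replicates 1, 2 and 3. The libraries were not alike in atrial content. The atrial light chain Myl7 stood at 357, 73.7 and 0.28 FPKM in STZ replicates 1, 2 and 3, and at 262, 37.9 and 0.21 FPKM in PBS replicates 1, 2 and 3, and the fit held the STZ library with almost no Myl7 but not the PBS library with almost none. The epithelial genes Epcam, Krt5 and Cldn4, of a cell type also rich in desmosomes, were listed at 0 in the 5 complete libraries, and the 8 markers of mesothelium summed to 1.28 to 5.81 FPKM in STZ and 2.27 and 1.27 FPKM in PBS. Of the markers of other cells that were tested, 0 of 8 passed for endothelium and 0 of 7 for atrial muscle, 3 of 8 fell for fibroblasts, 1 of 7 fell for smooth muscle and pericytes, and 1 of 4 rose for leukocytes. The fibroblast markers that fell were the collagen genes Col1a1, Col1a2 and Col3a1. Pdgfra, Tcf21 and Dcn had positive differences (0.37, 0.25 and 0.38) and Lum and Ddr2 negative ones, none of which passed.

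As background, the disc couples heart muscle cells both mechanically and electrically. Gap junctions, built from connexins, pass current from cell to cell. Adherens junctions, built from N-cadherin and catenins, anchor the actin of the myofibrils, while desmosomes, built from desmosomal cadherins, plakoglobin, plakophilin and desmoplakin, anchor the desmin filaments. Inherited loss of desmosomal proteins causes arrhythmogenic cardiomyopathy in humans, and redistribution or loss of the main ventricular connexin is a familiar feature of diseased myocardium.

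The promoter windows of both connexin genes are shown because these genes lay on opposite sides of 0 in the comparison given further on. They run from 250 bases before to 50 bases after the RefSeq start (build GRCm38.p6), and capitals mark every match to the motifs that were searched. For Gja5 this start lies inside the annotated gene, which begins at 96904693, and which start was used in these libraries is unknown.
Gja1, chr10:56377050-56377349, plus strand: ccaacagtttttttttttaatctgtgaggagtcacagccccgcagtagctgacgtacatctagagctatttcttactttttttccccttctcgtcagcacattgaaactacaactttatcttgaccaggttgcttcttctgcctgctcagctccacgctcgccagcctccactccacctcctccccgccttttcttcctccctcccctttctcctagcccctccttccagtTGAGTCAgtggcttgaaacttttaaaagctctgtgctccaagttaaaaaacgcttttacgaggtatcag
Gja5, chr3:97032152-97032451, plus strand: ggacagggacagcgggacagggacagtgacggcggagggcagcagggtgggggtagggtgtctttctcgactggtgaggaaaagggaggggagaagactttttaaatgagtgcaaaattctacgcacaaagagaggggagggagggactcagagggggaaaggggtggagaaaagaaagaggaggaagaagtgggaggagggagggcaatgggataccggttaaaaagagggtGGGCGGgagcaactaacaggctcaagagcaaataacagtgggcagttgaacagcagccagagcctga
The motifs were searched on both strands as the letters TGANTCA (AP-1), GGGCGG (Sp1), AGGTGT (T-box factors), TNAAGTG (Nkx2-5) and ACANNTGT (Iroquois factors). The Gja1 window held 1 match, to AP-1, whose first base lies at -19 relative to the start, and 7.81% of all 32851 windows in the table held that motif. The Gja5 window held 1 match, to Sp1, with its first base at -17, and 35.7% of all windows held that motif. No matches overlapped. Neither window held the letters of the T-box motif (13.7% of all windows), the Nkx2-5 motif (11.5%) or the Iroquois motif (7.38%).

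Connexin 43 was the disc gene with the largest difference. Gja1 (ENSMUSG00000050953, chromosome 10, 56377330 to 56402513, GRCm38), which encodes this main gap junction protein of ventricular muscle, was measured at 12.4, 22.1 and 14.5 FPKM in STZ replicates 1, 2 and 3, against 31.3 and 33.6 FPKM in PBS replicates 1 and 2. Every STZ library lay below both PBS libraries, and STZ replicate 2 lay nearest to them. The means were 16.3 ± 5.06 FPKM in STZ (SD, n = 3) and 32.5 ± 1.60 FPKM in PBS (SD, n = 2), a ratio of 0.503. On the log2(FPKM + 1) scale the difference was -0.99 ± 0.24 (SE), with a 95% interval from -1.56 to -0.42. It did not pass the threshold of 0.05 once adjusted over all 11556 genes tested (limma adjusted p = 0.0658). It did pass without STZ replicate 2, where the difference was -1.21 (limma adjusted p = 0.0279), with genes of at least 5 FPKM alone (limma adjusted p = 0.0493), after median centring (limma adjusted p = 0.0483) and with a trend on exon length removed (limma adjusted p = 0.0467). Over all alternatives its adjusted p ran from 0.0279 to 0.275. In bulk tissue, fewer cells of a type and less RNA per cell cannot be told apart. Of 9 heart muscle marker genes, 8 had a negative difference and Actc1 alone passed, and their summed FPKM was 10624 to 12288 in STZ and 13551 and 14354 in PBS. That sum leans on abundant genes such as Actc1, at a mean of 3004 FPKM in STZ and 4861 FPKM in PBS. Myh6, Ttn and Ryr2 were, like Actc1, lower in each STZ library, with differences of -0.36, -0.55 and -1.24. Tnni3, Myl2, Myl3 and Pln overlapped between the groups, and Tnnt2 was higher in each STZ library. The part of heart muscle content in the Gja1 values was not tested.

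Gja1 also held a different place within the libraries of each group, a measure that no scaling between libraries can move. Ranked among the 10 disc genes by FPKM, it was 6th, 5th and 4th in STZ replicates 1, 2 and 3, and 2nd in both PBS libraries. Of the summed FPKM of 5 connexins (Gja1, Gja3, Gja4, Gja5 and Gjc1), it made up 33.8%, 59.6% and 43.9% in the STZ libraries, against 71.1% and 68.6% in the PBS libraries. The summed FPKM of these connexins was 36.8, 37.0 and 33.0 in STZ, against 44.1 and 49.0 in PBS. The other connexins together therefore held a larger share in STZ, which restates the smaller share of Gja1. Gja4, a connexin of arterial endothelium, held 26.4% ± 6.81 of the sum in STZ (SD, n = 3) and 12.7% ± 1.94 in PBS (SD, n = 2), and Gjc1, a connexin of the conduction system and of smooth muscle, held 12.7% ± 3.95 in STZ and 5.73% ± 0.118 in PBS. Neither gene passed alone, with differences of 0.57 for Gja4 (limma adjusted p = 0.182) and 0.55 for Gjc1 (limma adjusted p = 0.181).

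Gja5 (ENSMUSG00000057123, chromosome 3, 96904693 to 97077416) encodes connexin 40, the fast-conducting connexin of atrium, His-Purkinje system and arterial endothelium. It was the lowest of the disc genes in both groups by mean, at 1.26, 1.47 and 1.01 FPKM in STZ replicates 1, 2 and 3 and 0.69 and 0.93 FPKM in PBS replicates 1 and 2. The groups did not overlap, but the gap between STZ replicate 3 and PBS replicate 2 was small. The difference was 0.31 ± 0.16 (SE, 95% interval -0.07 to 0.69, limma adjusted p = 0.26). Gja5 met the filter on low values, at least 1 FPKM in at least 2 libraries, through its STZ libraries alone. The part of the unequal atrial content in the Gja5 values was not tested. Of 7 tested markers of arterial endothelium, all had a positive difference and 1 rose, Sema3g, and the list's summed FPKM was 39.1 to 47.7 in STZ and 25.8 and 27.3 in PBS, a movement whose part in the Gja5 values was not tested. Of the FPKM of Gja1 and Gja5 together, Gja5 held 9.20%, 6.25% and 6.52% in STZ, against 2.15% and 2.69% in PBS, a share that also moves with Gja1.

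**Figure D1:**
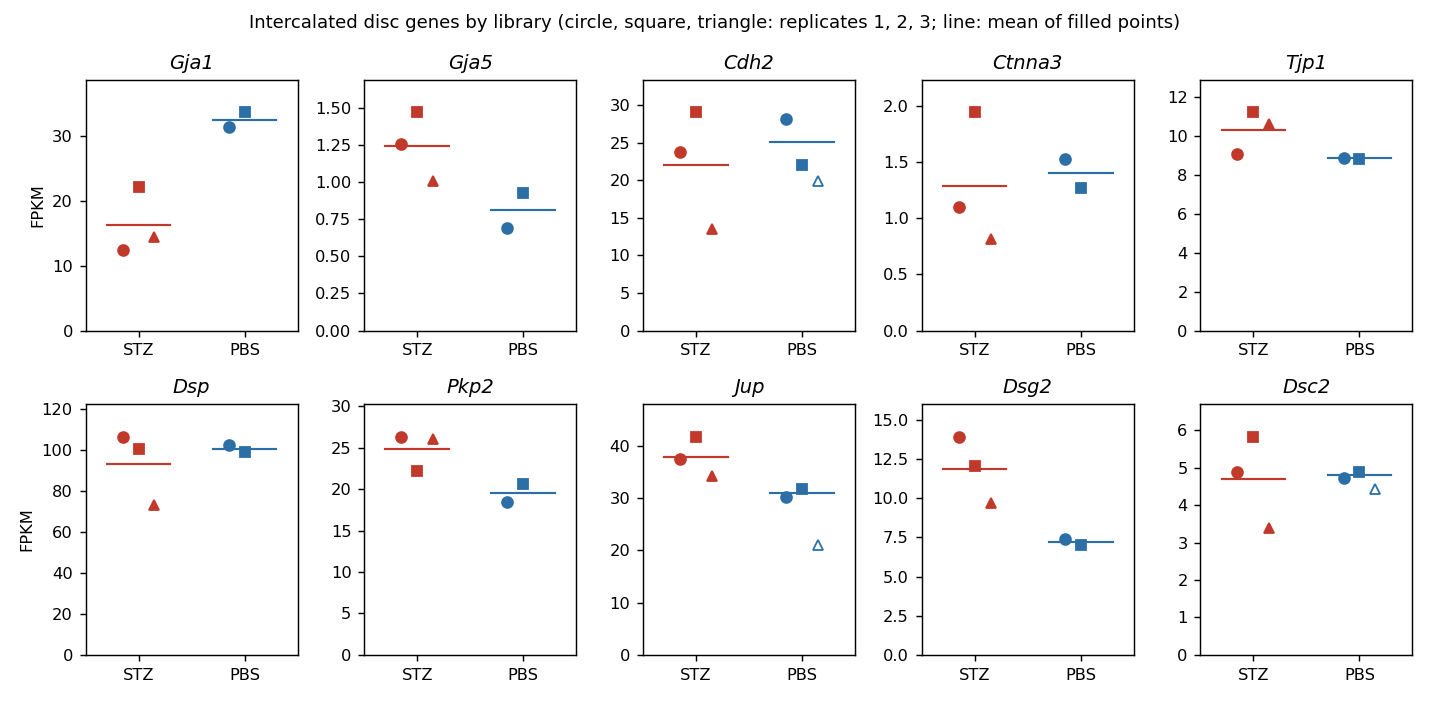
FPKM of the 10 disc genes (vertical axes, from 0) in STZ and PBS libraries. Circles, squares and triangles are replicates 1, 2 and 3, lines are means of the filled points, and the open triangle is PBS replicate 3, listed for 3 genes and not in the mean. Gja1 lies at 12.4 to 22.1 FPKM in STZ against 31.3 and 33.6 FPKM in PBS, while Dsg2 lies at 9.66 to 13.9 FPKM in STZ against 7.37 and 7.04 FPKM in PBS.

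Among the desmosomal cadherins, which hold neighbouring cells together across the gap, Dsg2 was higher in the STZ libraries without passing the test, and Dsc2 overlapped between the groups. Dsg2 (desmoglein 2, ENSMUSG00000044393, chromosome 18) was at 13.9, 12.1 and 9.66 FPKM in STZ replicates 1, 2 and 3, against 7.37 and 7.04 FPKM in PBS replicates 1 and 2. All STZ libraries lay above both PBS libraries, with STZ replicate 3 the nearest. The ratio of means was 1.65 and the difference 0.64 ± 0.17 (SE, 95% interval 0.23 to 1.04), which missed the threshold (limma adjusted p = 0.0781). Without STZ replicate 3 it was 0.77 and passed (limma adjusted p = 0.0493), and over all alternatives its adjusted p ran from 0.0493 to 0.33. Dsc2 (desmocollin 2, ENSMUSG00000024331, chromosome 18), its partner, was at 4.88, 5.83 and 3.38 FPKM in STZ and 4.74, 4.89 and 4.44 FPKM in PBS replicates 1, 2 and 3. The PBS values of Dsc2 lay inside the range of the STZ values, with a difference of -0.05 (95% interval -0.54 to 0.43, limma adjusted p = 0.886). Within each library, Dsg2 therefore made up more of the pair, at 74.0%, 67.4% and 74.1% in STZ, against 60.9% and 59.0% in PBS.

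The plaque proteins link these cadherins to desmin. Jup (plakoglobin, ENSMUSG00000001552, chromosome 11, 100368958 to 100397763), which serves desmosomes and adherens junctions alike, was at 37.5, 41.7 and 34.3 FPKM in STZ, against 30.3, 31.7 and 21.1 FPKM in PBS replicates 1, 2 and 3. The groups did not overlap, with PBS replicate 3 the lowest of the 6 libraries. The difference was 0.28 (95% interval -0.04 to 0.60, limma adjusted p = 0.235), and 0.46 with PBS replicate 3 added (95% interval 0.06 to 0.85, limma adjusted p = 0.125, and 0.0452 to 0.653 over all alternatives). Of the tested genes that PBS replicate 3 lists, 41.9% had groups that did not overlap with it added and 12.4% passed. Pkp2 (plakophilin 2, ENSMUSG00000041957, chromosome 16, 16213318 to 16272712), the main plakophilin of heart muscle, was at 26.3, 22.2 and 26.1 FPKM in STZ, against 18.5 and 20.6 FPKM in PBS. It too was higher in each STZ library than in both PBS libraries, by 0.33 (95% interval 0.0022 to 0.66, limma adjusted p = 0.185). Dsp (desmoplakin, ENSMUSG00000054889, chromosome 13, 38151294 to 38198577), which binds the desmin filaments and was the most abundant of the 10 genes in every complete library, was at 106, 100.1 and 73.1 FPKM in STZ and 102 and 98.9 FPKM in PBS. Its groups overlapped, with STZ replicate 3 alone below the rest (difference -0.13, 95% interval -0.57 to 0.32, limma adjusted p = 0.696).

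Set against each other inside a library, the desmosomal genes held different shares in the groups. Dsp made up 56.2%, 55.0% and 49.9% of the summed FPKM of the 5 desmosomal genes in STZ, against 62.7% and 60.6% in PBS. Dsg2 made up 7.36%, 6.63% and 6.60% in STZ, against 4.52% and 4.32% in PBS. Jup made up 19.9%, 22.9% and 23.4% in STZ, against 18.6% and 19.4% in PBS. The STZ libraries were lower than both PBS libraries for the share of Dsp and higher for those of Dsg2 and Jup. The FPKM of Dsp overlapped between the groups, so its smaller share also moves with the other desmosomal genes. The shares of Pkp2 and of Dsc2 overlapped between groups. Jup was also set against its close relative Ctnnb1 (beta-catenin), a pair chosen after the values were seen. Jup held 40.4%, 40.9% and 41.5% of their summed FPKM in STZ, against 35.4%, 36.2% and 34.4% in PBS replicates 1, 2 and 3. On this measure PBS replicate 3 lay close to the other PBS libraries, although both its Jup and its Ctnnb1 (40.1 FPKM, against 55.1 and 55.8 FPKM in PBS replicates 1 and 2) were low. No test is given for the shares.

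**Figure D2:**
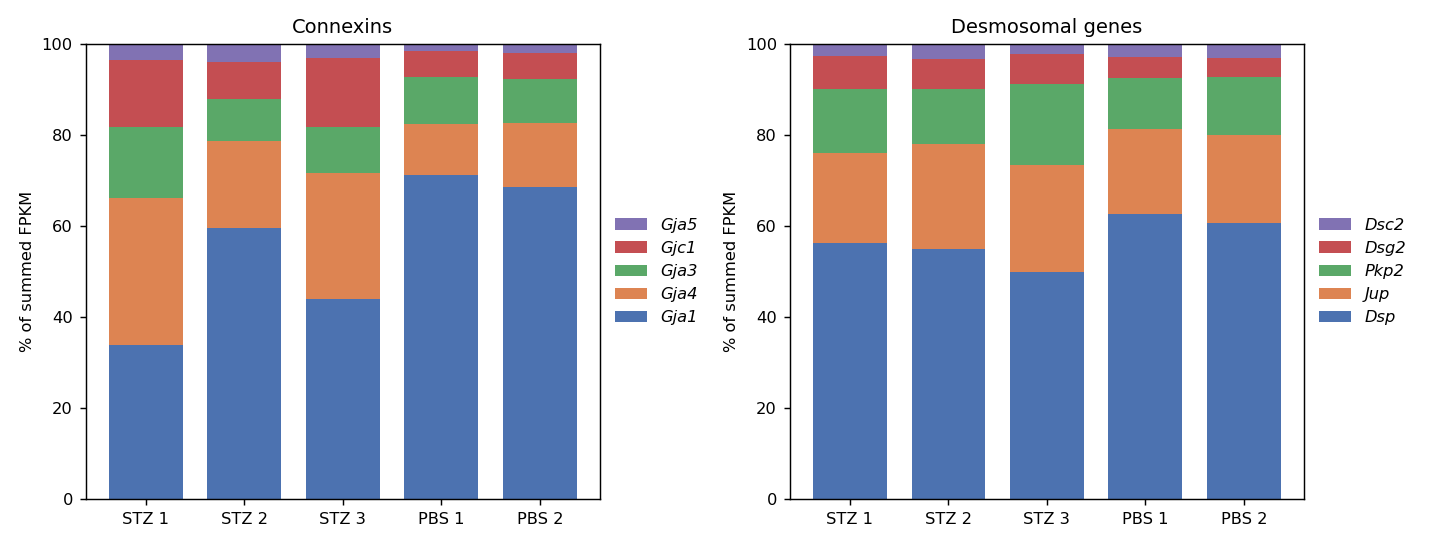
Share of each gene in the summed FPKM (vertical axis, percent) of 5 connexins (left) and of the 5 desmosomal genes (right), 1 bar per library, STZ replicates 1 to 3 and then PBS replicates 1 and 2. Gja1 makes up 33.8% to 59.6% of the connexin sum in STZ against 71.1% and 68.6% in PBS, and Dsp 49.9% to 56.2% of the desmosomal sum in STZ against 62.7% and 60.6% in PBS.

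In the adherens junction, neither gene differed beyond the spread of its libraries. Cdh2 (N-cadherin, ENSMUSG00000024304, chromosome 18), the cadherin of the cardiac adherens junction, was at 23.7, 29.0 and 13.5 FPKM in STZ, against 28.2, 22.0 and 20.0 FPKM in PBS replicates 1, 2 and 3. The groups overlapped, and STZ replicate 2 was the highest and STZ replicate 3 the lowest of the 6 libraries. The difference was -0.23 (95% interval -0.99 to 0.53, limma adjusted p = 0.677). Ctnna3 (alpha-T-catenin, ENSMUSG00000060843, chromosome 10, 63430098 to 65003667), a catenin that in heart muscle also binds plakophilin 2, was at 1.10, 1.94 and 0.81 FPKM in STZ and 1.53 and 1.27 FPKM in PBS. Here again STZ replicate 2 was the highest and STZ replicate 3 the lowest (difference -0.10, 95% interval -0.65 to 0.44, limma adjusted p = 0.806). Ctnna3 was the minor alpha-catenin transcript beside Ctnna1, with 2.95%, 4.61% and 2.74% of their summed FPKM in STZ and 3.85% and 3.19% in PBS. Tjp1 (ZO-1, ENSMUSG00000030516, chromosome 7, 65296165 to 65527781), a scaffold that binds the tail of connexin 43 at the rim of the gap junction, was at 9.10, 11.2 and 10.6 FPKM in STZ, against 8.90 and 8.81 FPKM in PBS. Its groups did not overlap, but STZ replicate 1 lay next to the PBS values (difference 0.19, 95% interval -0.12 to 0.51, limma adjusted p = 0.392). Tjp1 and Gja1 thus lay on opposite sides of 0.

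Over the list, 0 of 10 genes passed the threshold with limma, and at an unadjusted p of at most 0.05 there were 3 (Gja1, Dsg2 and Pkp2). Across all tested genes 5.82% passed the adjusted threshold, and 26.6% had an unadjusted p of at most 0.05. The groups did not overlap for 6 of the 10 genes, 5 of them higher and 1 lower in STZ, against 28.7% and 18.8% of all tested genes, or 47.4% together. One of the 5 higher genes is Gja5, which reached the filter through its STZ libraries alone and so could be counted only as high there. The median difference was 0.07 over the list and 0.06 over all tested genes. The list as a whole therefore lay near the background on these counts.

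**Figure D3:**
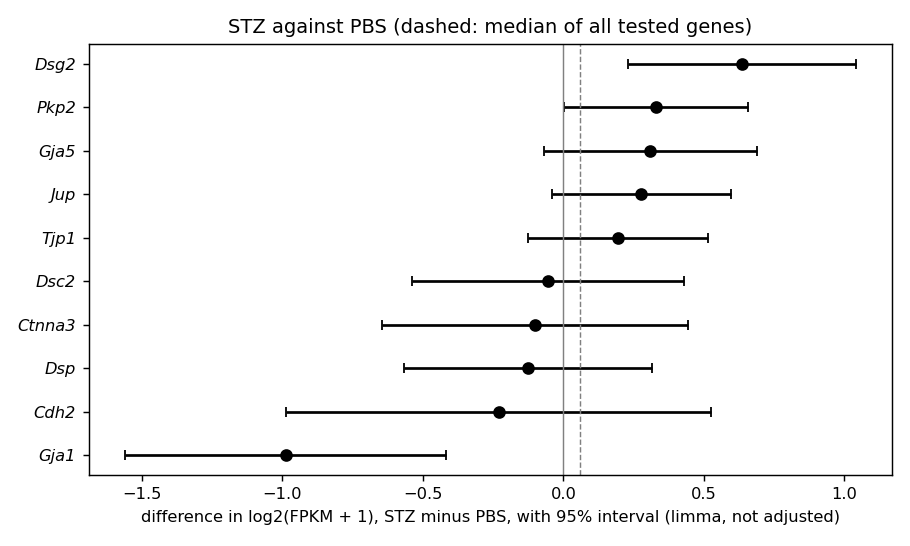
Difference in log2(FPKM + 1), STZ minus PBS (horizontal axis), for each of the 10 disc genes, with the 95% interval from limma, not adjusted for the number of genes. The dashed line is the median of all tested genes, 0.06. The intervals of Gja1 (-1.56 to -0.42) and Dsg2 (0.23 to 1.04) lie farthest from 0, on opposite sides.

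The order of the levels ran from Dsp down to Gja5 in both groups. In STZ the means were 93.1 ± 17.6 FPKM for Dsp, 37.8 ± 3.72 for Jup, 24.9 ± 2.31 for Pkp2, 22.1 ± 7.89 for Cdh2, 16.3 ± 5.06 for Gja1, 11.9 ± 2.13 for Dsg2, 10.3 ± 1.09 for Tjp1, 4.70 ± 1.24 for Dsc2, 1.28 ± 0.587 for Ctnna3 and 1.25 ± 0.230 for Gja5 (SD, n = 3). From Pkp2 to Tjp1 each gene's mean ± SD overlapped that of its neighbour in this order, and so did those of Ctnna3 and Gja5. In PBS the means were 101 ± 2.33 FPKM for Dsp, 32.5 ± 1.60 for Gja1, 31.0 ± 0.990 for Jup, 25.1 ± 4.38 for Cdh2, 19.6 ± 1.51 for Pkp2, 8.86 ± 0.0636 for Tjp1, 7.21 ± 0.233 for Dsg2, 4.82 ± 0.106 for Dsc2, 1.40 ± 0.184 for Ctnna3 and 0.81 ± 0.170 for Gja5 (SD, n = 2). There the mean ± SD of Gja1 overlapped that of Jup, and that of Cdh2 overlapped that of Pkp2. Besides Gja1, the ranks that did not overlap between the groups were those of Pkp2, at 3rd or 4th in STZ and 5th in PBS, and of Jup, at 2nd in STZ and 3rd in PBS. Both ranked below Gja1 in the PBS libraries and above it in the STZ libraries, so these shifts are not separate from that of Gja1. Some of these orders were close. In STZ replicate 2 Pkp2 was at 22.2 FPKM and Gja1 at 22.05 FPKM, and in PBS replicate 1 Gja1 was at 31.34 FPKM and Jup at 30.26 FPKM.

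For 4 genes the spread within the STZ group ended in replicate 3. Cdh2, Dsp, Dsc2 and Ctnna3 were each lowest in that library among the 5, and Cdh2 lay 0.70 below its 5-library mean on the log2 scale. In STZ replicate 2, 6 of the 10 genes were highest. Without STZ replicate 3 the differences of those 4 genes turned positive, at 0.07 for Cdh2, 0.04 for Dsp, 0.12 for Dsc2 and 0.05 for Ctnna3, and none passed. In STZ replicate 3, genes of short transcripts also lay high beside those of long ones. Protein-coding genes with at least 5000 exon bases had a median deviation of -0.03 there and those under 2000 exon bases 0.11, against 0.09 and 0.02 in STZ replicate 2. The long genes were at -0.01 in STZ replicate 1, and at -0.01 and -0.03 in PBS replicates 1 and 2. The disc genes have 5277 to 10257 exon bases, and their median deviation was -0.19 in STZ replicate 3 and 0.26 in STZ replicate 2. With a trend on exon length removed from each library, a setting added after the data were seen, Cdh2 stood at -0.26, Dsp at -0.16, Dsc2 at -0.09 and Ctnna3 at -0.14. In the main fit they stood at -0.23, -0.13, -0.05 and -0.10. The part of transcript length in the values of these 4 genes was not tested.

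**Figure D4:**
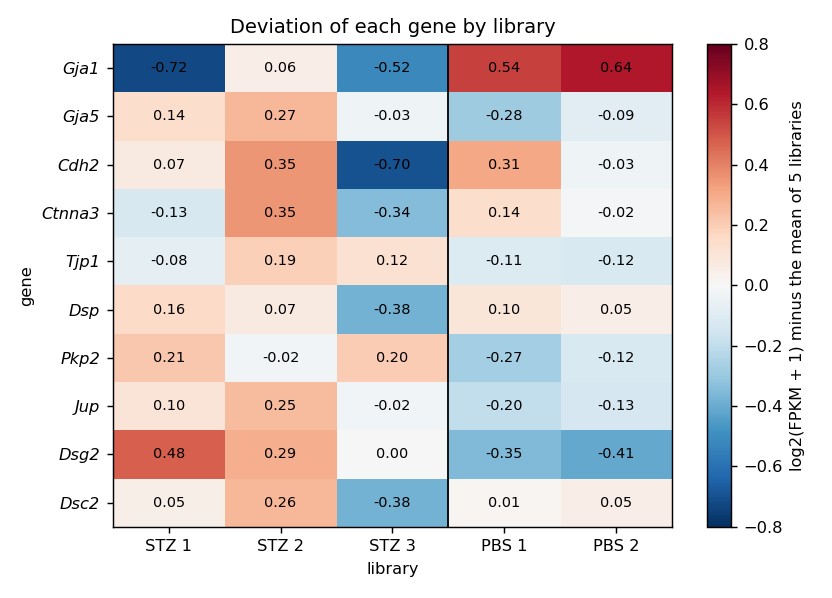
Deviation of log2(FPKM + 1) from the mean of the 5 fitted libraries (colour and printed value) for each disc gene (rows) in STZ replicates 1 to 3 and PBS replicates 1 and 2 (columns). In the STZ replicate 3 column Cdh2, Dsp, Dsc2 and Ctnna3 are at -0.70, -0.38, -0.38 and -0.34, and Gja1 is negative in STZ replicates 1 and 3 and positive in both PBS libraries.

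Around these 10, a wider set of 94 genes of the disc and its regulation was examined, of which 72 reached the filter. In it 6 genes rose in STZ hearts and 0 fell (limma adjusted p of at most 0.05), or 8.33% higher, where 3.64% of all tested genes were higher and 2.17% lower. At an unadjusted p of at most 0.05 there were 25 in either direction. The set's median difference was 0.13 and that of all tested genes 0.06. The genes that rose were Perp, Pkp4, Myzap, Irx3, Tbx3 and Csnk1e. The count of 6 was 0 when PBS replicate 1 was left out, 0 when PBS replicate 2 was left out, and 3 when STZ replicate 1 or STZ replicate 2 was left out. With PBS replicate 3 added, 9 genes were higher and 3 lower in STZ: these 6 with Lmo7, Sp1 and Ccn2 were higher, and Cxadr, Xirp2 and Plec were lower.

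Of 3 tested desmosome genes beyond the 10, 2 rose. Perp, a membrane protein of desmosomes and a p53 target, was at 112, 116 and 97.2 FPKM in STZ, against 51.7, 59.2 and 53.9 FPKM in PBS replicates 1, 2 and 3 (difference 0.95 ± 0.14, SE, limma adjusted p = 0.0212). Pkp4, a relative of the plakophilins found in both desmosomes and adherens junctions, was at 23.1, 26.5 and 26.9 FPKM in STZ, against 14.9, 12.8 and 13.9 FPKM in PBS (difference 0.84 ± 0.14, SE, limma adjusted p = 0.0276). For both genes the STZ libraries lay well clear of the 3 PBS libraries. Des, the desmin filament anchored by desmosomes, had a difference of 0.32 (limma adjusted p = 0.164). Of the 6 skin-type desmosomal genes in the list, none of which reached the filter, Pkp1, Dsc1 and Dsc3 were listed at 0 in all complete libraries, and Pkp3, Dsg3 and Dsg1a at no more than 0.19 FPKM in STZ and 0.05 FPKM in PBS.

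Of 26 tested scaffold genes 1 rose, Myzap, a myocardial zonula adherens protein that binds desmoplakin, at 109, 121 and 98.3 FPKM in STZ, against 66.1 and 72.4 FPKM in PBS (difference 0.65 ± 0.14, SE, limma adjusted p = 0.0489). It no longer passed after median centring, quantile normalization, TPM or scaling without mitochondrial genes. The next in order of p were Lmo7, a scaffold of adherens junctions (0.56, limma adjusted p = 0.0645), and Tmem65, a disc protein needed for the placing of connexin 43 (-0.68, limma adjusted p = 0.0722). Tmem65 was at 14.5, 18.7 and 13.0 FPKM in STZ, against 24.9 and 25.3 FPKM in PBS, so that STZ replicate 2 was the highest of its STZ libraries, as for Gja1. With PBS replicate 3 added, Lmo7, which that library does not list, passed as higher in STZ, and Cxadr, Xirp2 and Plec passed as lower. Xirp2, an actin-binding protein of the disc, was at 7.07, 5.51 and 11.3 FPKM in STZ, against 13.8, 15.8 and 21.1 FPKM in PBS replicates 1, 2 and 3.

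None of 9 tested adherens junction genes passed (Arvcf, -0.30, limma adjusted p = 0.175, and Nectin2, 0.30, limma adjusted p = 0.401, had the smallest p), and none of 3 further connexins did. Of the 12 tested genes of connexin transport and kinases Csnk1e rose, a casein kinase 1 isoform, at 10.5, 11.2 and 10.8 FPKM in STZ, against 5.01, 4.48 and 4.87 FPKM in PBS replicates 1, 2 and 3 (difference 1.04 ± 0.12, SE, limma adjusted p = 0.0117). Casein kinase 1 delta phosphorylates connexin 43, and Csnk1d had a difference of 0.34 (limma adjusted p = 0.192), after Mapk3 (0.40, limma adjusted p = 0.121). None of 7 tested genes of beta-catenin and Hippo output passed. The smallest p there were those of Ccn2, at 78.3, 59.4 and 40.0 FPKM in STZ and 31.6, 16.8 and 21.5 FPKM in PBS (difference 1.27, limma adjusted p = 0.0866), which shares 23.2% of its exon length with a gene on the opposite strand, and of Nf2 (-0.30, limma adjusted p = 0.281).

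All 12 tested transcription factors of connexin genes had a positive difference, where 57.0% of all tested genes did, and 2 rose. Irx3, which in mouse hearts represses Gja1 and activates Gja5 in the conduction system, was at 38.0, 27.1 and 29.0 FPKM in STZ, against 8.68 and 8.66 FPKM in PBS (difference 1.73 ± 0.17, SE, limma adjusted p = 0.0082). Tbx3, a repressor of Gja1 and Gja5 in the mouse conduction system, was at 4.03, 3.88 and 2.80 FPKM in STZ, against 1.13, 1.68 and 1.73 FPKM in PBS replicates 1, 2 and 3 (difference 0.92 ± 0.18, SE, limma adjusted p = 0.042). The STZ libraries of both lay above the PBS libraries throughout, and Tbx3 missed the threshold after median centring, quantile normalization or scaling without mitochondrial genes. Gata6 (0.71, limma adjusted p = 0.0775) and Hand2 (0.51, limma adjusted p = 0.0957) came next. Irx3 also stood in the list of conduction system markers. Of 3 tested markers there, 2 had a negative difference, and both reached the filter through their PBS libraries alone. Hcn4, the pacemaker channel, was at 0.56, 0.42 and 0.47 FPKM in STZ, against 1.63 and 1.64 FPKM in PBS. Cacna1g was at 0.64, 0.88 and 0.83 FPKM in STZ, against 1.35, 1.57 and 1.29 FPKM in PBS replicates 1, 2 and 3. Cntn2, a marker of Purkinje fibres that was not tested, was at 0.22 to 0.90 FPKM in STZ and 0.79 and 0.48 FPKM in PBS.

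**Figure D5:**
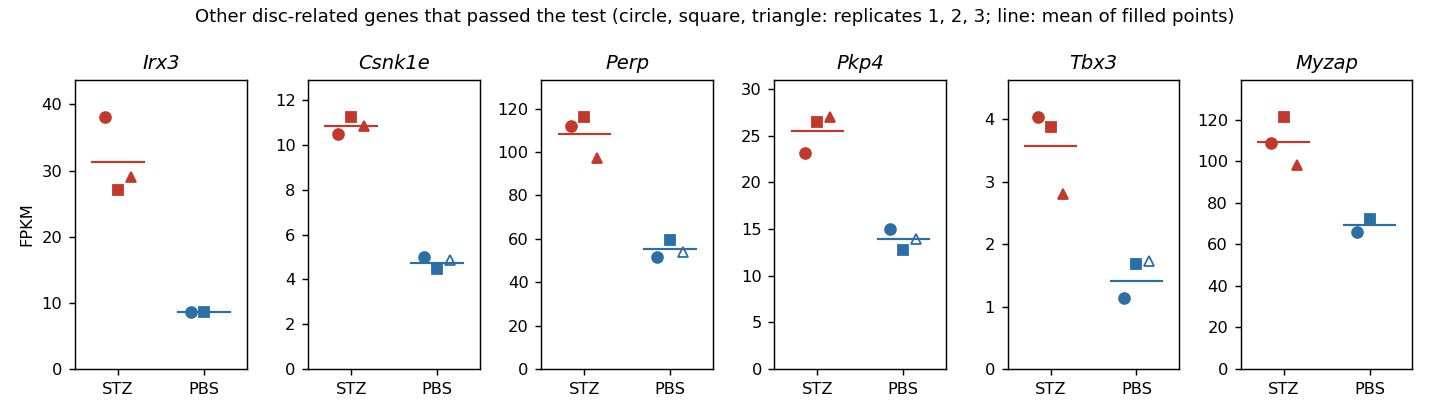
FPKM (vertical axes, from 0) of the 6 other disc-related genes that passed the test, in STZ and PBS libraries. Circles, squares and triangles are replicates 1, 2 and 3, lines are means of the filled points, and the open triangle is PBS replicate 3 where its file lists the gene. In each panel the lowest STZ library lies above the highest PBS library.

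The tested genes nearest to each connexin were found by the root mean square difference of log2(FPKM + 1) values, each gene centred on its mean over the 5 fitted libraries. Nearest to Gja1 were Gal3st3 (0.0876), Uaca (0.102) and Gcat (0.108). Gal3st3 was at 2.05, 4.27 and 2.43 FPKM in STZ, against 5.88 and 5.70 FPKM in PBS. Nearest to Gja5 were Sft2d1 (0.0264), Tomm20 (0.0284) and Axin1 (0.0306), all highest in STZ replicate 2. These genes were chosen for their nearness, so an order of libraries shared with the connexin is no separate result.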

How the data were processed

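Gene expression was measured by RNA sequencing of poly(A) RNA. Per the file headers, the deposited values are FPKM per gene (2 decimals). The tools named in the submitters' processing notes are StringTie 1.3.4d, HISAT2 2.0.4 and cutadapt 1.9, and the build is GRCm38. How strand was set, which annotation was used and what was filtered is not given in the sources used here, so reads of overlapping genes may be shared: antisense genes cover 2.87% of the exon length of Gja5, 5.17% of Dsp and 3.99% of Dsg2. As FPKM sum over a library, abundant genes bear on all others, and mitochondrial genes held 42.0% to 45.5% in STZ and 47.3% and 47.1% of the total in PBS.

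Identifiers were matched to symbols and positions in GENCODE M21 (55141 of 55401 matched). The fit covered 5 libraries and every gene that reached 1 FPKM in 2 or more of them. Values were taken as log2(FPKM + 1), pseudocount 1, and compared with limma 3.58.1 in R 4.3.3 (eBayes with trend, two-sided), STZ minus PBS without covariates, with p adjusted by Benjamini-Hochberg across the whole table and called at 0.05. A log2 difference on this scale understates the change of low genes. The test was tested on simulated data. No pair of libraries shared more than 31 values among 4549 or more compared, so none was a repeat. Promoter windows were read from a RefSeq table (build GRCm38.p6), which held 6 of the 10 genes.

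The members and gene lists were chosen with earlier results of these data known. The genes named are the 10 members, all genes of the wider lists past the threshold, up to 2 more per list by p, and the 3 nearest profiles of each connexin; others say what a count holds or were chosen after their values were seen. Alternatives were other pseudocounts, filters, scalings, robust eBayes, the replicate number as a block, each library left out, and PBS replicate 3 added.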

Additional observations from a re-analysis of the deposited data

How the results depend on the processing

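The directions of Gja1, Gja5, Pkp2, Jup, Dsg2 and Tjp1 were the same under every alternative run. Depth is unknown, so its part in the error of low genes such as Gja5 and Ctnna3 cannot be stated. Gja1 passed with genes of at least 5 FPKM (-0.99, fewer genes tested), after median centring (-1.06) and with an exon length trend removed (-1.02), where the count of lower disc genes was 1, against 0 as reported. Jup passed (0.46) with PBS replicate 3, the genes of all 6 files and the replicate block together. In that setting only 3 disc genes were tested, and 1 was called higher. Dsc2 reversed to 0.0026 as TPM, a shift smaller than its error. The cause of these moves was not tested beyond what the settings themselves change.

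Whether the replicate numbers pair the libraries cannot be told from these values. Over 4811 genes, deviations of libraries with the same number correlated at 0.176, -0.0502 and 0.15, and not every library correlated best with its own number. The atrial gene Myl7, however, ran in the same order by number in both groups. It was at 357, 73.7 and 0.28 FPKM in STZ and 262, 37.9 and 0.21 FPKM in PBS. With the replicate block, where STZ replicate 3 has no PBS partner in the fit, Cdh2 stood at 0.073, Dsp at 0.037, Dsc2 at 0.12 and Ctnna3 at 0.052, the values without that library. Under the block 0 of the wider set and 36 higher and 28 lower of all tested genes passed, against 6 and against 421 and 251 as reported. It ended no call among the 10 genes, which had none.

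Leaving out each library in turn gave 0 to 1 higher and 0 to 1 lower disc genes, 0 to 5 higher and 0 to 1 lower genes of the wider set, and 18 to 231 higher and 6 to 167 lower genes of all. The difference then ran from -1.21 to -0.82 for Gja1, -0.45 to 0.073 for Cdh2, -0.23 to 0.037 for Dsp, 0.52 to 0.77 for Dsg2, -0.20 to 0.12 for Dsc2 and -0.30 to 0.052 for Ctnna3. With no filter 2 of the wider set rose, Csnk1e and Irx3, and 46 higher and 35 lower genes passed of all. With PBS replicate 3 added, 9 of the wider set were higher and 3 lower, and 737 higher and 432 lower genes passed of all. Limited to the genes of all 6 files, 33 genes of the wider set and 4811 of all were tested. There 10 of the wider set were higher, 3 were lower (3 with the block), and 380 lower genes passed of all. With the exon length trend removed, 1 gene of the wider set (Tmem65) and 395 of all were lower. Higher genes made up 62.6% of all calls as reported, 48.5% after median centring, 50.2% after quantile normalization, 73.1% as TPM and 48.7% with the length trend removed.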
